A study of Mus musculus with 3 samples.

Results

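The genes described here encode the machinery that ties a heart muscle cell to the matrix around it. They are Itgb1, Ilk, Lims1, Parva, Tln1, Fermt2, Vcl, Zyx, Pxn and Ptk2, 10 of the 28149 gene names on the array. All gene probes that carry 1 of these names in the 3 scanner files were taken, which gave 22 probes, each a DNA oligonucleotide of 60 bases. RNA of mouse embryonic hearts (C57BL/6, E15.5) was hybridized to 3 two-colour Agilent whole-mouse-genome arrays. On every array RNA pooled from 2 hearts labelled Lrrc10-/- (red, Cy5) met RNA pooled from 2 hearts labelled Lrrc10+/+, the wild type (green, Cy3). Lrrc10-/- mice carry a germline deletion of Lrrc10, which encodes a leucine-rich repeat protein of cardiomyocytes, and the methods describe them as backcrossed to C57BL/6 and compared with littermates at this age. Beside the embryonic age, the wild-type channel is also labelled with an adult one. The 3 arrays are the replicates, and the methods describe them as independent biological replicates. Cy5 always marked the same genotype, so the effects of genotype and dye cannot be told apart. The question was whether transcripts of the adhesion complex differ between hearts with and without Lrrc10 before birth.

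Integrins are receptors made of an α and a β chain that span the cell membrane and bind matrix proteins outside the cell. Talin and kindlin bind the tail of the β chain and switch the receptor on, and the trimer of ILK, PINCH and parvin binds the same tail and links it to actin. Vinculin strengthens the link of talin to actin under load, zyxin joins actin at mature adhesions, and paxillin and focal adhesion kinase pass the signal into the cell. In cardiomyocytes these proteins sit in costameres, which fasten the Z-discs of the sarcomeres to the membrane, and at intercalated discs.

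The targeted gene, Lrrc10, went against the labels. In the channel labelled Lrrc10-/- its processed signal was 6294, 8521 and 12637 on replicates 1, 2 and 3, and in the channel labelled wild type 281, 237 and 200. The log2 ratio of Cy5 over Cy3 averaged 4.41 ± 0.40 (SD, n = 3; limma adjusted p of 0.000387), and it was above 0 on 3 of 3 arrays. The mean stayed between 4.22 and 5.21 in all settings tried, while the adjusted p reached 0.504 with the methods' t-test. Every direction below is therefore that of the channel labelled Lrrc10-/- over the channel labelled wild type. A swap of the labels would turn all of these directions round. Replicate 3 was the dimmest array, with 63.9% of gene spots well above background in Cy5 and 69.3% in Cy3, against 82.4% to 93.2% on the others. Replicate 1 was read with another scanner model and another version of the scanner software than replicates 2 and 3. Log2 ratios of replicates 1 and 2 correlated with r = 0.51 across all tested probes, which are not independent and share their arrays, and those of replicate 3 with r = 0.22 against each of the others. Heart identity was plain in both channels: signals of the 15 cardiomyocyte markers summed to at least 509845 in Cy5 and 559887 in Cy3. Of these markers, 11 had a spot saturated in 1 channel or the other on some array.

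Sequences of 8 of the probes are given here, 5′ to 3′ on the transcript strand, with positions in mm9 as the files give them. They are the probes of Ilk, Lims1 and Fermt2 that stand for these genes below, and other probes of Itgb1, Tln1 and Vcl. Exon, intron and UTR annotation of mm9 was not used here. In the Ilk and Lims1 probes the capitals mark the first in-frame stop codon of the longest open frame in the probe, so these probes read the end of that frame.
Ilk, A_51_P138651 (chr7:112891125-112891184, + strand): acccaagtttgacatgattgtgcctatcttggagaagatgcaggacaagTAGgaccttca
Lims1, A_52_P222725 (chr10:57884263-57884322, + strand): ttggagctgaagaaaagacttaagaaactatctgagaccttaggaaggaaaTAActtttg
For Itgb1, the probe that the files name for the β1D mRNA, the splice form of striated muscle, is shown by its first 54 bases. Its 60 bases span 5019 bases of the chromosome, so it crosses at least 1 intron and reads spliced RNA. The other sequence is a probe of Itgb1 upstream in the transcript.
Itgb1 (β1D), A_52_P69236 (chr8:131250931-131255949, + strand): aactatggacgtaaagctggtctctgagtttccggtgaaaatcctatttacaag
Itgb1, A_52_P351816 (chr8:131246349-131246408, + strand): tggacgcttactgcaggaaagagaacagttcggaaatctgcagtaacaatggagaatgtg
The probes of Tln1 are shown because their ratios disagreed, that of Fermt2 because it spans 24754 bases of the chromosome and so reads spliced RNA, and the upstream probe of Vcl because both Vcl probes lay below 0.
Tln1, A_52_P15076 (chr4:43546772-43546831, - strand): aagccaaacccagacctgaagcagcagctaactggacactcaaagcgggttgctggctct
Tln1, A_52_P50376 (chr4:43545784-43545843, - strand): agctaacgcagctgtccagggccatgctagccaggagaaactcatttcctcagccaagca
Fermt2, A_51_P332075 (chr14:46124351-46149104, - strand): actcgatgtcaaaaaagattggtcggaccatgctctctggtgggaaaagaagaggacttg
Vcl, A_51_P297131 (chr14:21850831-21850890, + strand): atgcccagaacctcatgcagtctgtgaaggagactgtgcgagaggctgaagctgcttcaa

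No transcript of the complex was called as changed. Of the 22 probes, 21 stood well above background in 1 channel or the other on every array, and were tested with limma beside all other such probes. None of the 21 passed an adjusted p of 0.05 in either direction, where 1.39% of all 28328 tested probes were called higher and 0.00353%, a single probe, lower. At an unadjusted p under 0.05, 4 of the 21 were lower (19.0%), against 4.26% of all tested probes, and 1 was higher (4.76%), against 9.07%. The 4 are the probes of Ilk and of Vcl, 2 for Vcl, and 1 of Pxn, and the 1 is a probe of Lims1. Without replicate 1 the count of lower probes was 0, and the count of higher probes was 0 without replicate 2 and 2 without replicate 3. With so few arrays, the 95% interval of a probe's mean, before any adjustment, reached 0.33 to each side on the log2 scale (median over the 21 probes). Differences under about that size could not be resolved. A call after adjustment needed more, as means of -0.43 for Ilk and -0.46 for Vcl were not called. In pooled tissue RNA, fewer cells of a type and less RNA per cell cannot be told apart.

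The signs leaned to lower signal in the channel labelled Lrrc10-/-. The mean log2 ratio was below 0 for 15 of the 21 probes (71.4%), against 47.4% of all tested probes. With the scanner software's own processed signals it was below 0 for 18 of the 21, where the share among all tested probes was 56.5%. The ratio was below 0 on all 3 arrays for 9 probes (42.9%, against 17.4%) and above 0 on all 3 for 1 probe (against 19.1%). These 9 are probes of Itgb1, Ilk, Parva, Tln1, Vcl and Pxn. With 1 probe per gene, the brightest, 6 of the 10 genes (60%) had a mean below 0, against 44.3% of all 19261 tested genes. Over the 10 genes the median was -0.23, against 0.028 over all tested genes. The median over the 10 genes was -0.20, -0.067 and -0.31 on replicates 1, 2 and 3, so replicate 2 lay closest to 0. The members were chosen with earlier results of these data known, and several probes read the same gene. These shares are therefore a description and not a test.

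**Figure D1:**
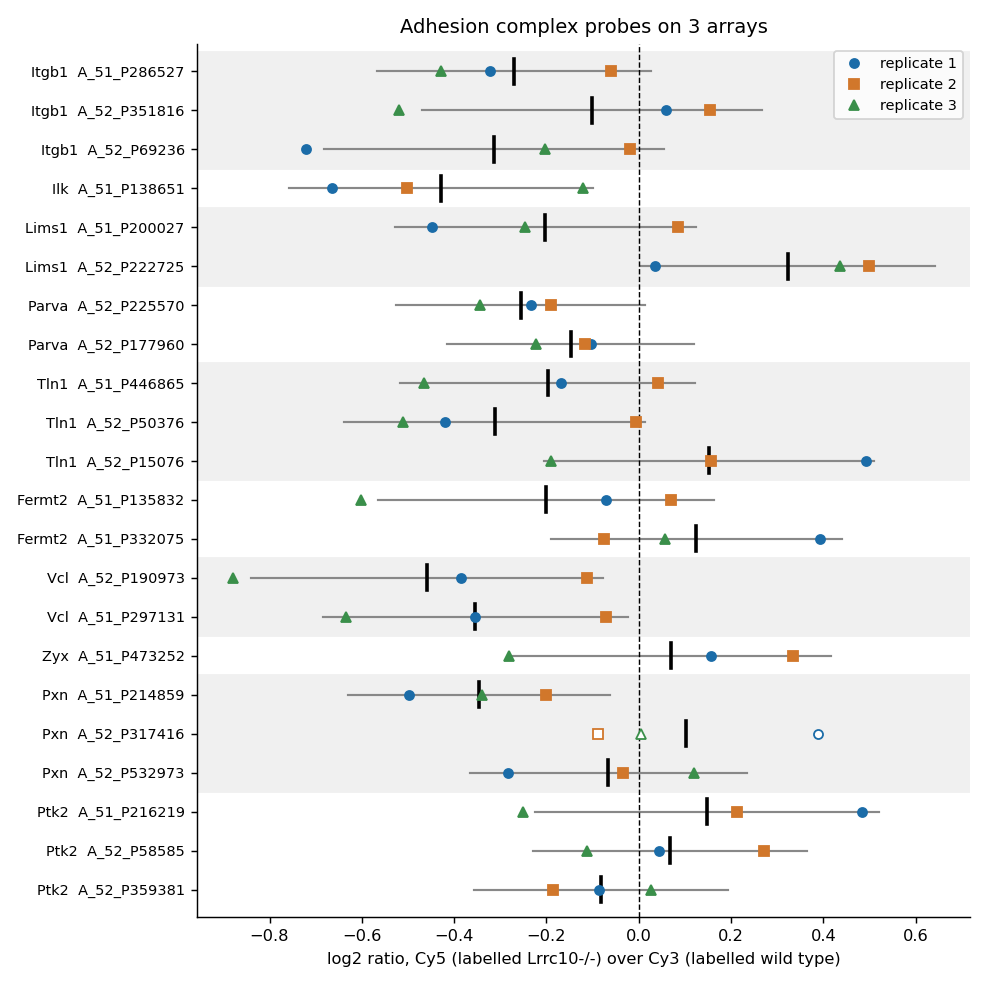
Log2 ratio of Cy5 (labelled Lrrc10-/-) over Cy3 (labelled wild type) for the 22 probes of the 10 genes. Symbols are the 3 arrays, black ticks their mean and grey lines limma's 95% interval; open symbols mark the Pxn probe that was not tested. Both Vcl probes and the Ilk probe lie below 0 on every array, while probes of Tln1, Fermt2, Lims1 and Ptk2 fall on both sides.

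Itgb1, the integrin β1 chain, which pairs with most α chains of the heart, was read by 3 probes. The brightest, A_51_P286527 near the 3′ end of the transcript, is printed 10 times on each array. Processed Cy5 signals were 5567, 5450 and 5623 on replicates 1, 2 and 3, and processed Cy3 signals were 7011, 5863 and 7863. Cy5 was lower than Cy3 on all 3 arrays. The log2 ratio was -0.32, -0.06 and -0.43, averaging -0.27 ± 0.19 (SD, n = 3), which corresponds to a 1.21-fold lower signal. This direction is opposite to the one the study gives for Itgb1, Ilk, Parva and Vcl in embryonic Lrrc10-/- hearts, there measured by qRT-PCR. From its own analysis of these E15.5 arrays, the study reports focal adhesion and actin cytoskeleton pathways among those most upregulated. By Western blot the study also reports more talin and a trend to more vinculin and integrin β1. Lrrc10 in these data is itself opposite to its labels. The mean of the Itgb1 probe exceeded the SD between arrays, but it did not pass the test, with a limma unadjusted p of 0.0683 and an adjusted p of 0.414.

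The repeated spots of this probe give the spread among single spots of an array beside the spread between array means. On replicate 1, 9 of the 10 spots lay below 0, on replicate 2 6 did, and on replicate 3 all 10 did. Spots ranged from -0.62 to 0.045 on replicate 1, from -0.28 to 0.11 on replicate 2 and from -0.53 to -0.35 on replicate 3. The SD among spots was 0.23, 0.14 and 0.066 on the 3 arrays, and 0.16 pooled, against 0.19 between the array means. Over the 188 probes printed 10 times, the medians of these values were 0.16 and 0.18. An array mean averages 10 spots, so the SD among spots and the SD between array means are not measures of the same unit. The scatter of Itgb1 among spots was thus similar in size to that of other repeated probes. It was not without order: from spot 1 to spot 10, as the software numbers them, the ratio went from 0.045 to -0.62 on replicate 1. It went from 0.073 to -0.23 on replicate 2 and from -0.35 to -0.49 on replicate 3. Why the ratio changed with spot order was not tested. A single spot of replicate 1 or 2 would not have settled the sign of Itgb1, and the other probes of the complex have a single spot on each array.

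**Figure D2:**
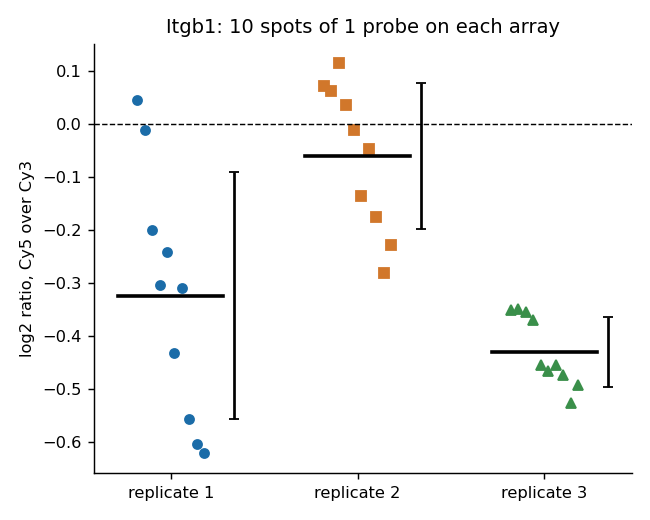
Log2 ratio of Cy5 over Cy3 at each of the 10 spots of the Itgb1 probe A_51_P286527 on each array. Horizontal bars are array means and error bars the SD among spots; replicate 3 lies wholly below 0, whereas replicates 1 and 2 have spots on both sides.

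The β1D probe had Cy5 signals of 454, 432 and 375 and Cy3 signals of 727, 401 and 492. Cy5 was lower on replicates 1 and 3, and the processed signals ran the other way on replicate 2. After loess its log2 ratio was -0.72, -0.02 and -0.20, averaging -0.31 ± 0.36 (SD, n = 3; limma adjusted p of 0.443). Its difference from the 3′ probe of Itgb1 was -0.40, 0.04 and 0.22 on replicates 1, 2 and 3, averaging -0.044 ± 0.32 (SD, n = 3). The exact sign-flip p was 1 (two-sided). The smallest p that 3 arrays allow is 0.25, so this test could not decide whether the 2 probes differ. The upstream probe A_52_P351816 had ratios of 0.06, 0.15 and -0.52, a mean of -0.10 ± 0.36 (SD, n = 3). Its processed signals were lower in Cy5 on all 3 arrays, and with them it averaged -0.37.

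None of the genes of the trimer of ILK, PINCH and parvin was called with all 3 arrays. Ilk, the kinase-like scaffold at its centre, has 1 probe, with Cy5 signals of 5318, 3627 and 5765 and Cy3 signals of 7072, 4498 and 6137 on replicates 1, 2 and 3. Cy5 was lower on every array, least so on replicate 3. The log2 ratio was -0.66, -0.50 and -0.12, averaging -0.43 ± 0.28 (SD, n = 3), a 1.35-fold lower signal (limma unadjusted p of 0.0175, adjusted p of 0.258). Without replicate 3 it averaged -0.58 and was called lower (limma adjusted p of 0.0217), in a fit that called 1540 probes higher and 248 lower. With the scanner software's processed signals it averaged -0.27 (limma unadjusted p of 0.142). The call without replicate 3 was the sole call of a tested probe of the complex in any setting tried, and over these settings the adjusted p of Ilk ranged from 0.0217 to 0.853.

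Parva, α-parvin, which binds ILK and actin, had the smallest scatter of the complex. Its brighter probe, A_52_P225570, gave Cy5 signals of 1755, 781 and 1382 and Cy3 signals of 2519, 1032 and 1955. The log2 ratio was -0.23, -0.19 and -0.34, averaging -0.26 ± 0.080 (SD, n = 3; limma adjusted p of 0.398). The other probe, A_52_P177960, spans 7577 bases of the chromosome and so reads spliced RNA. It gave -0.10, -0.12 and -0.22, averaging -0.15 ± 0.065 (SD, n = 3). All 6 values of Parva were below 0. With the software's processed signals the probes averaged -0.47 (limma unadjusted p of 0.0219, adjusted p of 0.667) and -0.36.

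Lims1, which encodes PINCH1, the LIM-domain partner of ILK, had 1 probe with a mean above 0 and 1 with a mean below 0. A_52_P222725 gave Cy5 signals of 2130, 4340 and 14504 and Cy3 signals of 2274, 3375 and 11662, so that its level differed more between arrays than between channels. Its log2 ratio was 0.04, 0.50 and 0.44, averaging 0.32 ± 0.25 (SD, n = 3; limma adjusted p of 0.368). A_51_P200027, nearer the 3′ end of the same transcript, gave -0.45, 0.09 and -0.25, averaging -0.20 ± 0.27 (SD, n = 3). The 3′ probe was the lower of the 2 on 3 of 3 arrays, by 0.53 ± 0.14 (SD, n = 3) on the log2 scale, with an exact sign-flip p of 0.25, the smallest possible. The mean of both probes was 0.061. With the software's processed signals A_52_P222725 averaged 0.19. A further probe, A_52_P206836, is named Lims1 in the first file alone, with log2 ratios of 0.08, 0.50 and 0.05, and was not counted.

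**Figure D3:**
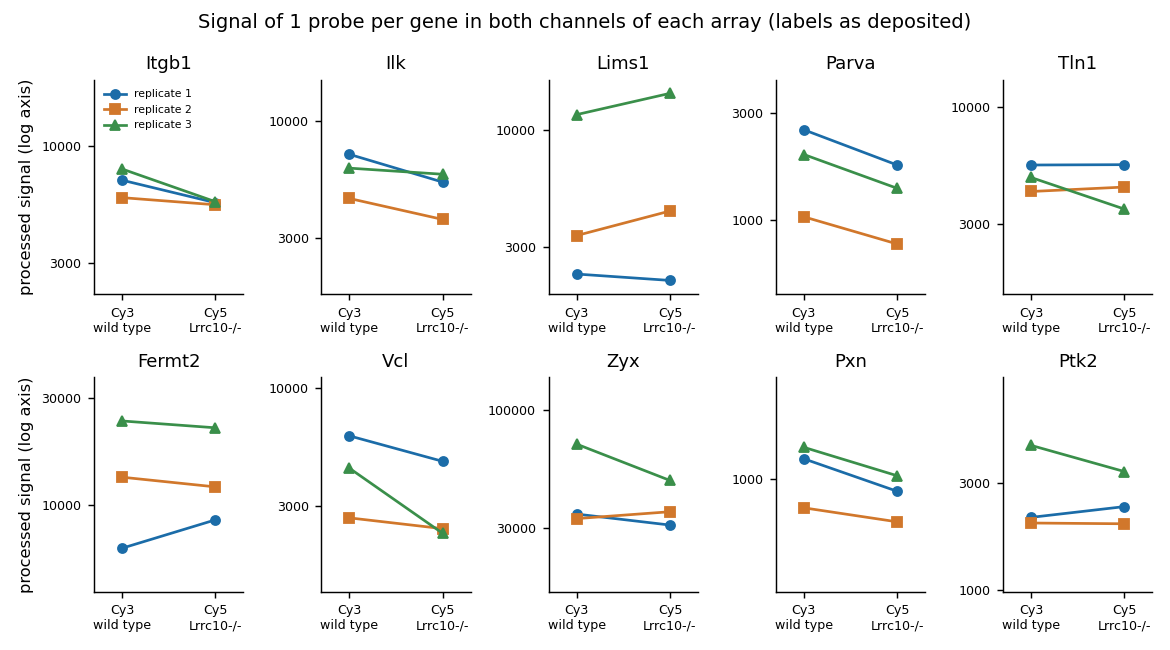
Processed signal (log axis, arbitrary units of the scanner) of the brightest probe of each gene in Cy3 and Cy5, 1 line per array. Ilk, Parva, Itgb1, Vcl and Pxn slope down from the channel labelled wild type to the channel labelled Lrrc10-/- on all 3 arrays, while the other genes cross or differ among arrays.

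Neither activator of the integrin tail was called, and the signs depended on the probe. Tln1, talin 1, has 3 probes. The brightest, A_51_P446865, had Cy5 signals of 5514, 4383 and 3496 against Cy3 signals of 5494, 4187 and 4834, and its log2 ratio was -0.17, 0.04 and -0.46 (mean -0.20 ± 0.25, SD, n = 3; limma adjusted p of 0.576). A_52_P50376 gave -0.42, -0.0053 and -0.51, a mean of -0.31 ± 0.27 (SD, n = 3). A_52_P15076, the next probe upstream in the transcript, gave 0.49, 0.16 and -0.19, a mean of 0.15 ± 0.34 (SD, n = 3). With the software's processed signals the 3 probes, in this order, averaged -0.13, -0.68 and -0.12, so that all were below 0. After loess the neighbouring probes A_52_P50376 and A_52_P15076 differed by 0.46 ± 0.40 (SD, n = 3) on the log2 scale, in the same direction on 3 of 3 arrays, with an exact sign-flip p of 0.25. Fermt2 encodes kindlin-2, the kindlin of heart muscle. Its probe A_51_P332075 gave Cy5 signals of 8562, 12004 and 22001 and Cy3 signals of 6401, 13257 and 23595, and a log2 ratio of 0.39, -0.08 and 0.06 (mean 0.12 ± 0.24, SD, n = 3; limma adjusted p of 0.731). The 3′ probe A_51_P135832 gave -0.07, 0.07 and -0.60, a mean of -0.20 ± 0.35 (SD, n = 3). The sign of Fermt2 thus depended on the probe, and without replicate 1 the first probe averaged -0.0088.

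Of the links to actin, Vcl, which encodes vinculin, lay below 0 with both probes on every array. Its 3′ probe A_52_P190973 had Cy5 signals of 4721, 2367 and 2257 against Cy3 signals of 6132, 2644 and 4401 on replicates 1, 2 and 3. Cy5 was lower on every array, most on replicate 3. The log2 ratio was -0.38, -0.11 and -0.88, averaging -0.46 ± 0.39 (SD, n = 3), a 1.37-fold lower signal (limma unadjusted p of 0.0245, adjusted p of 0.291). The other probe, A_51_P297131, gave -0.36, -0.07 and -0.63, averaging -0.35 ± 0.28 (SD, n = 3; limma unadjusted p of 0.0392, adjusted p of 0.346). With the software's processed signals this probe averaged -0.56. Both probes ranked the arrays alike. The size rests in part on replicate 3, without which the 3′ probe averaged -0.25. Zyx, zyxin, had Cy5 signals of 30790, 35295 and 48645 and Cy3 signals of 34460, 32896 and 70602, none of them saturated. Its log2 ratio was 0.16, 0.33 and -0.28 (mean 0.070 ± 0.32, SD, n = 3; limma adjusted p of 0.878), and the mean was -0.20 with the software's processed signals, so its sign was not settled.

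Neither signalling member was called. Pxn, paxillin, an adaptor that docks kinases at the adhesion, had Cy5 signals of 884, 646 and 1037 and Cy3 signals of 1234, 746 and 1388 at its brightest probe, A_51_P214859. Cy5 was lower on all 3 arrays. The log2 ratio was -0.50, -0.20 and -0.34, averaging -0.35 ± 0.15 (SD, n = 3; limma unadjusted p of 0.0234, adjusted p of 0.286). The upstream probe A_52_P532973 averaged -0.066 ± 0.20 (SD, n = 3) and 0.14 with the software's processed signals, and the third probe, A_52_P317416, which matches another transcript (AK084243), was well above background on only 2 of 3 arrays in each channel and was not tested. Ptk2, focal adhesion kinase, had Cy5 signals of 2355, 1974 and 3372 and Cy3 signals of 2109, 1990 and 4410 at A_51_P216219. Its log2 ratio was 0.48, 0.21 and -0.25, averaging 0.15 ± 0.37 (SD, n = 3; limma adjusted p of 0.731). The other Ptk2 probes averaged 0.068 ± 0.19 and -0.081 ± 0.11 (SD, n = 3), and with the software's processed signals A_51_P216219 averaged -0.080.

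Probes of 1 transcript could be set against each other for 8 of the 10 genes, because Ilk and Zyx have 1 probe each. After loess, in 7 of the 8 genes the probe nearer the 3′ end had the lower mean log2 ratio, Ptk2 being the exception. With the software's processed signals it was 6 of the 8, and these are not all the same genes. There the 3′ probe was the higher for Itgb1 and Vcl and the lower for Ptk2. The values that follow are after loess, and the share over all transcripts was not taken with the processed signals. The median difference of the 3′ probe minus the upstream probe was -0.22 on the log2 scale. Among the 5041 RefSeq transcripts with at least 2 tested probes, the 3′ probe was lower in 2491 (49.4%), and the median difference was 0.0032. The 3′ probe was lower on 3 of 3 arrays for Lims1, Parva, Tln1, Vcl and Pxn, and on 2 of 3 for Itgb1 and Fermt2. The differences were smallest in Vcl and Parva, at -0.11 for each, and largest in Lims1. The median GC content was 45% over the 21 probes and 41.7% over all tested probes, which does not compare 3′ probes with upstream ones. A part of base composition in these differences was not tested.

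**Figure D4:**
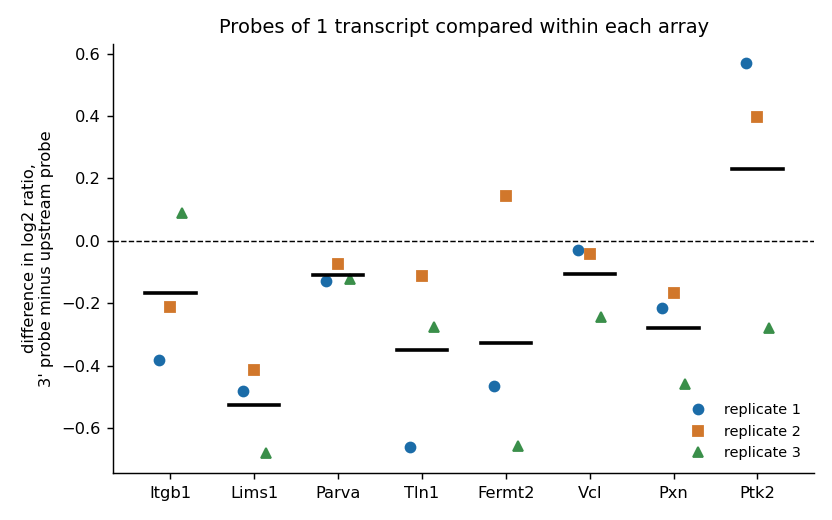
Difference in log2 ratio between the probe nearest the 3′ end and the most upstream probe of the same transcript, for the 8 genes with such a pair. Symbols are the 3 arrays and black bars their mean; 7 of the 8 means lie below 0 and that of Ptk2 lies above.

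Agreement over the arrays was moderate. Of the 21 probes, 10 had 1 sign on all 3 arrays (47.6%), against 36.6% of all tested probes. Their SD over the arrays had a median of 0.27, from 0.065 for Parva to 0.39 for Vcl, against a median of 0.20 over all tested probes. Across the 21 probes, log2 ratios of replicates 1 and 2 correlated with r = 0.57, those of replicates 1 and 3 with r = 0.26, and those of replicates 2 and 3 with r = 0.24. Several of these probes read the same gene, so they are not independent points. The number of probes below 0 was 14, 12 and 17 of 21 on replicates 1, 2 and 3. The selection rule of the study asked for a p under 0.05, a minimum processed signal of 20 and a difference of 1.2-fold or more the same way on each array, and was applied here to the software's ratios with the per-array p. It picked 0 of the 22 probes in either direction, where it picked 2.09% of 30272 probes as higher and 0.126% as lower. Both Parva probes met the 1.2-fold part on every array but not the per-array p. Their software log2 ratios were -0.52, -0.40 and -0.50 for A_52_P225570, and -0.39, -0.27 and -0.41 for A_52_P177960. The study took its p from clustering of its replicates in other software, so this count is not a repeat of its rule.

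The other adhesion genes lay on both sides of 0. Of 105 further integrins, partners, signalling proteins, actin linkers and matrix ligands, 101 were tested, and 1 was called higher (0.99%, against 1.79% of all 19261 tested genes) and 0 lower. Unadjusted p-values under 0.05 were found for 8 genes above 0 (7.92%, against 10.6% of all tested genes) and 9 below 0 (8.91%, against 4.15%), and the median over the 101 genes was -0.021, closer to 0 than that of the complex. The called gene is Itgb8, the β8 chain, which pairs with αv. Its processed Cy5 signals were 1775, 5991 and 21316, those of Cy3 were 943, 1804 and 11557, and its log2 ratio was 0.86, 1.71 and 0.97 (mean 1.18 ± 0.46, SD, n = 3; limma adjusted p of 0.0293). Its mean stayed between 0.92 and 1.34 in the 15 other settings tried, but the call was lost in 10 of them, with limma adjusted p-values of 0.148 when replicate 1 was left out, 0.161 when replicate 2 was left out and 0.372 with the software's processed signals, and up to 0.533 with the methods' t-test. Next in that direction was Crkl, an adaptor that binds phosphorylated paxillin and p130Cas, with 0.92 ± 0.51 (SD, n = 3; adjusted p of 0.0838 by limma). Sorbs2, a linker to vinculin, averaged 0.38 ± 0.043 (SD, n = 3), with a limma adjusted p of 0.219. In the other direction, Itga9, the α9 chain, averaged -0.68 ± 0.28 (SD, n = 3), also with a limma adjusted p of 0.0838. Arhgef7, an exchange factor of the paxillin pathway, averaged -0.49 ± 0.24 (limma adjusted p of 0.183), and Bcar1, which encodes p130Cas, averaged -0.41 ± 0.032 (limma adjusted p of 0.193).

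**Figure D5:**
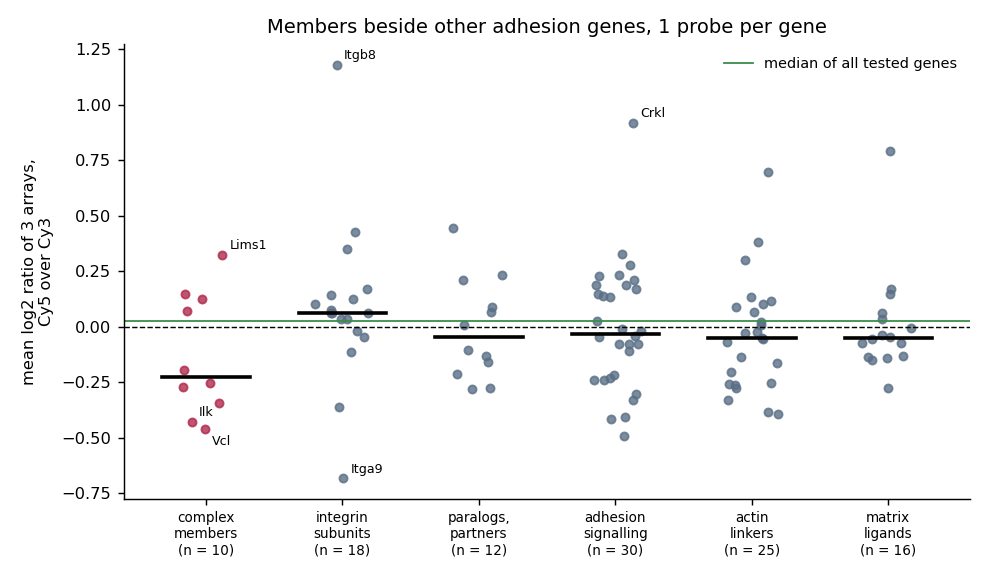
Mean log2 ratio over the 3 arrays for the 10 genes of the complex and 101 other tested adhesion genes in 5 lists, 1 probe per gene. Black bars are list medians and the green line is the median of all tested genes, 0.028; the complex has its median at -0.23, and Itgb8 stands highest.

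No close relative or partner of the 10 genes in the list that follows was called. Lims2, which encodes PINCH2, averaged 0.0095 ± 0.35 (SD, n = 3). Parvb, β-parvin, had 1 probe at -0.16 ± 0.013 and 1 at 0.62 ± 0.24 (SD, n = 3), each with 1 sign on all 3 arrays, and Parvg, the γ-parvin of blood cells, averaged -0.13 ± 0.11 (SD, n = 3). The brightest probe of Tln2, talin 2, averaged -0.28 ± 0.45 (SD, n = 3), while its other probes averaged 0.28 ± 0.55 and -0.10 ± 0.068. Fermt3, kindlin-3 of blood cells, averaged -0.10 ± 0.20, and the brighter probe of Ptk2b, the relative of focal adhesion kinase, -0.22 ± 0.19 (SD, n = 3). Both probes of Fermt1, the epithelial kindlin, were not tested, since neither channel was well above background on all arrays. The ILK partner Rsu1, which binds PINCH, averaged 0.21 ± 0.48 (SD, n = 3), and Itgb1bp2, melusin, a muscle protein that binds the β1 tail, averaged 0.066 ± 0.35. Actn2, α-actinin of the Z-disc, averaged -0.28 ± 0.32 (SD, n = 3; limma adjusted p of 0.477). The study reports Actn2 as higher in embryonic Lrrc10-/- hearts, by array and by qRT-PCR.

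Markers of other cells that a dissected heart can hold were examined because integrin adhesions are found in most of them. Of the smooth muscle markers 4 of 4 had a mean below 0, against 44.3% of all tested genes, with a median of -0.18, but Acta2 among them had saturated spots, where the ratio is not measured. Their summed signals ranged from 91744 to 176725 in Cy5 and from 100881 to 227511 in Cy3. The cardiomyocyte list had 14 of 15 genes below 0, with a median of -0.17 and summed signals of 509845 to 970414 in Cy5 and 559887 to 1248940 in Cy3, but in 11 of them a spot was saturated. The endothelial list had 3 of 8 below 0 (median 0.070) and the mesenchymal list 5 of 8 (median -0.087). The epicardial, erythroid, megakaryocyte and macrophage lists had 2 of 5, 3 of 5, 2 of 5 and 3 of 6 tested genes below 0. On replicates 1, 2 and 3 the epicardial median was -0.19, -0.17 and 0.42, and the macrophage median -0.11, -0.22 and 0.18. The megakaryocyte median was 0.30, -0.12 and 0.15, and the erythroid median -0.055, -0.12 and -0.16. The liver markers tested had a median of 0.76, -2.04 and 0.13 on replicates 1, 2 and 3, so liver RNA differed between the pools from array to array. No gene of these marker lists was called. Their part in the values of the complex was not tested.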

How the data were processed

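The values come from 3 two-colour arrays, each of 1 pool labelled Lrrc10-/- (Cy5) and 1 pool labelled wild type (Cy3). The deposited intensity values are those of the scanner software, Feature Extraction 9.1.3.1 (replicate 1) and 10.7.3.1 (replicates 2 and 3) per the file headers, while the submitters' processing notes name version 9.5. The deposited processed intensity is background-subtracted and dye-normalized. The deposited log10 ratio is Cy5 over Cy3, and the deposited p-value is the software's test within 1 array. The deposited series table equals these log10 ratios.

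Log2 ratios came from limma 3.58.1 (R 4.3.3): normexp on the mean signal and the median local background (offset 50), then loess within arrays with control spots at weight 0. Spots with a non-uniformity flag were dropped, and replicate spots averaged. A probe was tested if well above background, at no fewer than 50% of its spots, in the same channel of every array, which left 28328 probes. Ratios were tested against 0 (lmFit, eBayes, two-sided) and adjusted by Benjamini-Hochberg over all of them. A gene is represented by its brightest tested probe. Of 27340 RefSeq accessions, 26887 matched a GRCm38.p6 table used to update symbols. The analysis was tested on simulated data with shifts larger than any mean ratio of the complex, so this does not bear on differences of that size. The genes named are the 10 members, Lrrc10, the relatives given in the text, the other adhesion genes called and the 3 of lowest p in each direction with 1 sign on all arrays. Members and gene lists, the latter from general knowledge, were chosen with earlier results of these data known.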

Additional observations from a re-analysis of the deposited data

How the results depend on the processing

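Each gene's ratio was recomputed under 15 other settings (background correction, normalization, scaling, filters, non-uniform spots, arrayWeights, a trend on intensity, the t-test of the methods, the software version as a block, and each replicate left out), which gave 150 values. Of these, 140 kept their direction and their side of the threshold, 9 changed sign and 1 became a call. Changing only the filter, the flagged spots, the trend or the t-test left every one of these ratios as it was, so no sign could change there. The series table repeats the processed signals, so the 150 values are not separate checks. Zyx averaged -0.20 with the processed signals and with the series table, -0.033 with median centring, -0.0060 with scaling between arrays, and -0.062 to 0.25 with 1 replicate left out (lowest without replicate 2). Ptk2 averaged -0.080 with the processed signals and with the series table, and -0.019 to 0.35 with 1 replicate left out (lowest without replicate 1). Fermt2 averaged -0.0088 to 0.22 with 1 replicate left out (lowest without replicate 1) and -0.038 as the mean of its probes. Ilk was called lower without replicate 3, at -0.58. Of 11 other probes put in place of the representative ones, 4 changed the sign: Fermt2 to -0.20, Lims1 to -0.20, Ptk2 to -0.081 and Tln1 to 0.15. The cause was not tested. With 1 replicate left out, the number of probes of the complex called lower was 0 to 1, the number called higher 0 to 0, the probes below 0 on every array 9 to 12, the genes below 0 6 to 8, and the median over the genes -0.30 to -0.13. Probes lower at an unadjusted p under 0.05 numbered 7 with median centring, 7 with no filter on dim probes, 2 with the processed signals, 2 with scaling and 1 with the methods' t-test. Over all probes, calls ranged from 0 to 1540 higher and from 0 to 248 lower. Each log ratio already pairs the 2 pools of 1 array, so no further replicate block was fitted. No probe of the complex was saturated. Over the probes printed 10 times, the median SD was 0.16 among single spots of 1 array and 0.18 among array values. Each array value is a mean of 10 spots, so these SDs do not show how much of the spread between arrays is error among spots.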
